A study of Mus musculus with 12 samples.

Results

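Ctr9 and RNA polymerase II phosphorylated at serine 5 (RNAPII Ser5p) were compared over the whole genome in mouse embryonic stem cells (mESCs), using the peak list deposited for each. Every line of both lists was used, 44748 Ctr9 peaks and 4490 RNAPII Ser5p peaks, together 49238 of the 128567 regions in the 7 peak lists of the series. The series holds chromatin immunoprecipitation sequencing (ChIP-seq) of mESCs and NIH3T3 fibroblasts and RNA-seq of both. The Ctr9 list came from untreated E14 mESCs in which GFP was fused to the 3′ end of the endogenous Ctr9 gene by CRISPR/Cas9, as a sorted pool rather than a single clone, and chromatin was recovered with an anti-GFP antibody. The study describes RNAPII Ser5p as recovered with its own antibody from mESCs carrying a GFP tag on NELFA, and elsewhere only as recovered from mESCs. By the former account the lists came from differently tagged lines, whereas the labels give only the E14 cell type for both. Cells of both lines were grown in serum with LIF.

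Ctr9 is a core subunit of the Paf1 complex (Paf1C), which travels with transcribing RNAPII and assists elongation through chromatin. RNAPII is phosphorylated at serine 5 of its C-terminal repeats around initiation and promoter-proximal pausing, and at serine 2 (Ser2p) during elongation. NELF holds paused polymerase, and NELFA is among its subunits. Acetylation of histone H3 at lysine 27 (H3K27ac) marks active promoters and enhancers.

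Each list came from 1 library, so no difference below has a replicate check or a test. Intervals are 95% exact binomial intervals of shares or order-statistic intervals of medians, cover counting over peaks only, and treat neighbouring peaks as independent. Read totals are not in the peak lists. Fold is the enrichment of a peak's summit over its local background as MACS2 gave it. Because different antibodies were used, Ctr9 and Ser5p folds are not on a common scale. In the mESC RNA-seq library, 7 mESC markers had a median of 281 TPM (transcript abundance scaled to a fixed total per library). They ran from 1.23 for Dppa3 to 1402 for Pou5f1. The median was 0.737 over 7 fibroblast markers, which ran from 0.132 to 162, the highest being Vim. Over 6 markers of differentiated lineages the median was 0.197, with a range of 0 to 2.02.

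The sequences below belong to the small nuclear RNA (snRNA) genes, where strong Ser5p peaks often lacked Ctr9. snRNAs are the short RNA parts of the spliceosome, made by RNAPII (U6 by RNAPIII) and not polyadenylated. In each pair, the Ser5p peak on the first copy overlapped a Ctr9 peak and that on the second did not. Genes are from GENCODE and bases from RefSeq GRCm38. Capitals mark bases that differ between the copies of a pair. The U1 genes Gm22068 (chr11:87426716-87426879, plus strand, in an intron of Tex14) and Gm22513 (chr12:54696782-54696945, plus strand, outside protein-coding genes) differed at 1 of 164 positions.
Gm22068: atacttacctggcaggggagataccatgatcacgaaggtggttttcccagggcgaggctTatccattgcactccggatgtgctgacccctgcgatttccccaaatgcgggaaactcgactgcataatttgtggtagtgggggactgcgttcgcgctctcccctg
Gm22513: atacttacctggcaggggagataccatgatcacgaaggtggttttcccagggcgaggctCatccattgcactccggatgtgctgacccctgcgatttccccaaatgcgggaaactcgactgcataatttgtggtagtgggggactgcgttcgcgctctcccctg
The U2 genes Gm23849 (chr11:101627291-101627556, plus strand, in an intron of Rdm1) and Gm23971 (chr11:101645740-101646005, minus strand, outside protein-coding genes) are printed with the 75 bases before the gene. Their 191 transcribed positions were identical, and 14 of the 75 bases before them differed.
Gm23849: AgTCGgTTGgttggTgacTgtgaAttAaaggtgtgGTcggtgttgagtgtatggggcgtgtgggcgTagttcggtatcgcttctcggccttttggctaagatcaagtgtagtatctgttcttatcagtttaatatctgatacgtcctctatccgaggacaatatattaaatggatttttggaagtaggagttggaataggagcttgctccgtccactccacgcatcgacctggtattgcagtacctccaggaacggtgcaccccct
Gm23971: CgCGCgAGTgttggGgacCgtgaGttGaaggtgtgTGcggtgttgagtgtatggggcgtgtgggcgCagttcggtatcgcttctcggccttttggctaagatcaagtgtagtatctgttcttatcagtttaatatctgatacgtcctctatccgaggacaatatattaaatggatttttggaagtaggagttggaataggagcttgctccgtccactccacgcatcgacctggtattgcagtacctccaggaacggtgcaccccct
Reads that match several copies cannot be assigned to one of them with certainty, so values at single copies are uncertain. How such reads were treated beyond the aligner's default settings is not given in the sources used here.

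The first comparison asked how far the lists meet. Of the Ctr9 peaks, 2505 overlapped a Ser5p peak by at least 1 bp (5.6%, interval 5.39 to 5.82%). Of the Ser5p peaks, 3461 overlapped a Ctr9 peak (77.1%, interval 75.8 to 78.3%). These shares, over all peaks tested, are the backgrounds against which the subsets below are read. The Ctr9 list covered 32.8 Mb and the Ser5p list 2.94 Mb, and the 2.29 Mb they shared made up 78.0% of the bases under Ser5p. Whole Ser5p peaks lay inside a single Ctr9 peak in 2198 cases, whereas 130 Ctr9 peaks lay whole inside a Ser5p peak. A Ctr9 peak met 1 Ser5p peak in 1853 cases and 2 or more in 652, up to 13. For comparison, Ctr9 peaks overlapped 43.1% of NELFA peaks, 23.1% of H3K27ac peaks and 99.8% of RNAPII Ser2p peaks (1672 of 1675) in mESCs. The Ctr9 list of NIH3T3 cells, with 22016 peaks, overlapped 34.3% of the mESC Ser5p peaks.

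Ctr9 peaks with Ser5p were stronger and wider than those without. Their median fold was 6.16 (interval 6.01 to 6.37) against 3.71 (interval 3.70 to 3.71), and their median width 1356 bp (interval 1284 to 1428) against 376 bp (interval 373 to 379). The share of Ctr9 peaks with Ser5p was 2.00%, 1.78%, 1.80% and 3.69% in the 4 groups of lower fold and 18.7% in the group of highest fold, where the 5 groups were of equal size. Over groups of width it went from 0.950% in the narrowest to 18.6% in the widest. Ctr9 peaks under 1 kb held Ser5p in 2.57% of cases, those of 1 to 3 kb in 14.8%, those of 3 to 10 kb in 41.8% and those of at least 10 kb in 74.6% (53 of 71).

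A wide peak has more bases on which to meet another, so fold was also compared within the 5 groups of width. In the widest group the median Ctr9 fold was 8.35 with Ser5p and 5.26 without. That group ran from 876 to 43967 bp, so its widths were not alike. Among peaks of 1 to 3 kb the medians were 6.85 and 5.26, among those of 3 to 10 kb 12.6 and 7.92. For peaks of at least 10 kb they were 16.2 and 10.8. In the 2 groups next to the widest the gap was smaller, 4.55 against 4.05 and 3.82 against 3.56. In the 2 narrowest groups the direction was the other way, at 3.42 against 3.46 and 3.19 against 3.37, with overlapping intervals in both.

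**Figure D1:**
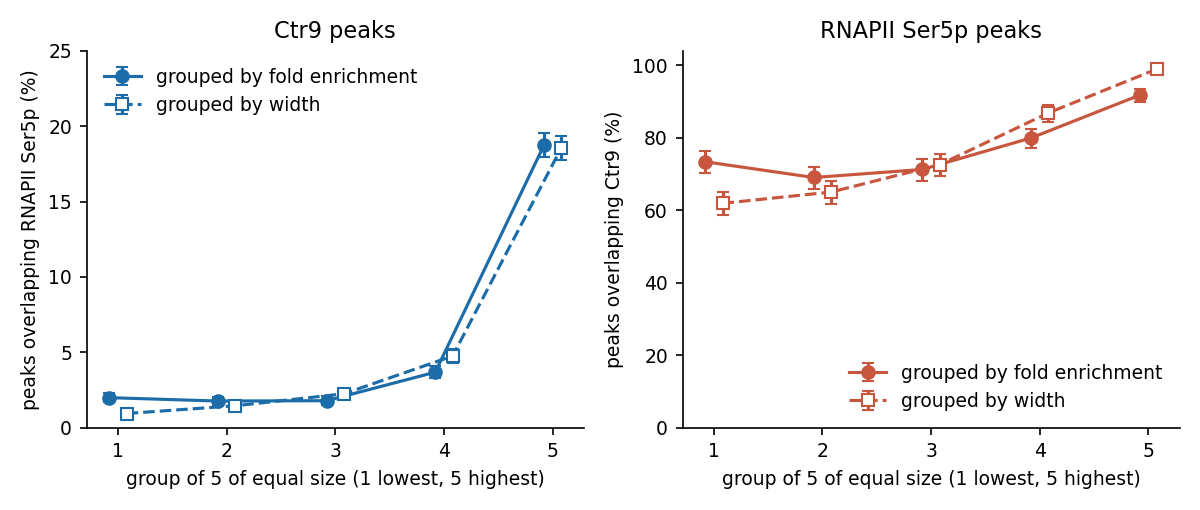
Share of Ctr9 peaks overlapping RNAPII Ser5p and of RNAPII Ser5p peaks overlapping Ctr9 (percent, with 95% exact intervals), in 5 groups of equal size from lowest (1) to highest (5), grouped by fold and by width. Among Ctr9 peaks the share stays at or below 4.76% in groups 1 to 4 and is 18.7% for the highest fold and 18.6% for the greatest width, and among Ser5p peaks it is 91.8% and 99.0% in the top groups.

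From the side of Ser5p the classes differed less in strength. The median Ser5p fold was 4.79 (interval 4.73 to 4.87) with Ctr9 and 4.37 (interval 4.33 to 4.44) without, and the median width 483 and 301 bp. The share with Ctr9 was 73.4% in the group of lowest fold, 69.0% in the next, and 91.8% in the highest. Among the 3461 Ser5p peaks with Ctr9, the Ser5p fold and the highest Ctr9 fold over it had a Spearman correlation of 0.233, given as a description, since both values come from the same loci. It was 0.389 over 1008 peaks at gene starts, 0.354 over 476 at gene ends and 0.117 over 999 in gene bodies.

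The classes lay at different places along genes. Summits were called start where a protein-coding gene began no more than 1 kb away, failing that end by the same margin, then body where inside such a gene, and otherwise elsewhere. The windows at starts cover 1.52% of the genome and those at ends 1.53%. Ctr9 summits fell at starts in 30.3% of peaks with Ser5p (760 of 2505) and 4.59% of those without (1938 of 42243). They fell in bodies in 27.6% and 60.9%. Ser5p summits showed the opposite: 29.1% of those with Ctr9 were at starts, against 67.8% of those without (698 of 1029). These shares use a single start per gene. With the starts of every transcript, they were 41.2% and 15.6% for Ctr9 with and without Ser5p. For Ser5p with and without Ctr9 they were 40.4% and 76.2%.

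Read by position, Ctr9 overlapped 59.1% of Ser5p peaks at starts (1008 of 1706), below the 77.1% over the whole list. It overlapped 86.3% of those in gene bodies (999 of 1158), 85.5% of those elsewhere (978 of 1144) and 98.8% of those at ends (476 of 482). At ends the Ctr9 peaks over Ser5p had a median fold of 13.3, against 6.91 at starts. Ser5p peaks at ends overlapped Ser2p in 60.8% of cases, NELFA in 6.02% and H3K27ac in 12.9%. At starts the same shares were 14.6%, 51.5% and 84.8%.

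The 1029 Ser5p peaks without Ctr9 included none that overlapped a Ser2p peak. That was nearly fixed in advance, because Ctr9 overlapped 1672 of the 1675 Ser2p peaks. Of the 698 at starts, 56.7% overlapped NELFA and 88.3% H3K27ac, against 47.9% and 82.4% of the 1008 start peaks with Ctr9. Among these 698, 626 (89.7%) were at a gene with a Ctr9 peak elsewhere in the gene region. That region was taken from 1 kb before the start to 5 kb past the end. Counted by gene, 94.4% of all genes with Ser5p at the start had Ctr9 in it, so the high share is not particular to these peaks.

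**Figure D2:**
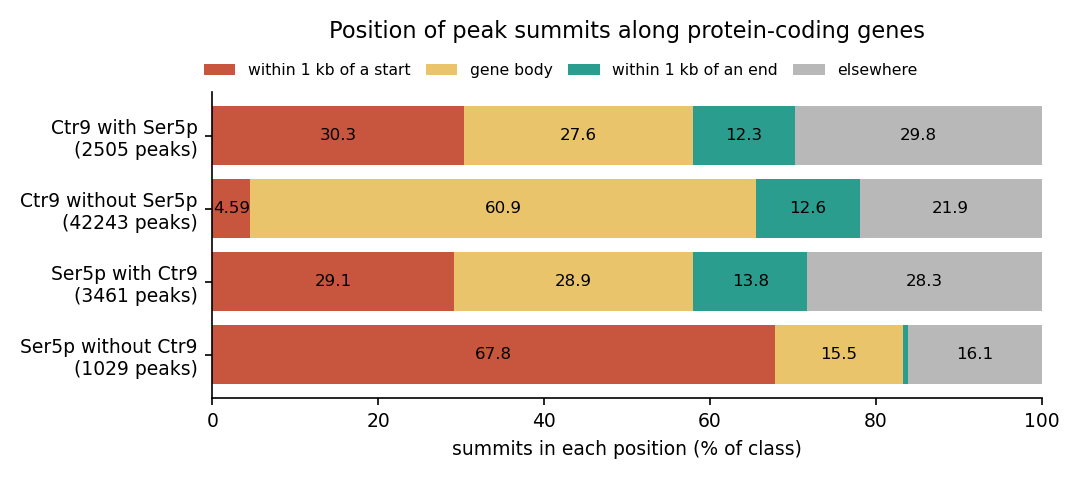
Share of summits (percent of each class) at gene starts, gene bodies, gene ends and elsewhere, for Ctr9 peaks with and without RNAPII Ser5p and RNAPII Ser5p peaks with and without Ctr9. Starts take 30.3% of Ctr9 peaks with Ser5p and 4.59% of those without, whereas they take 67.8% of Ser5p peaks without Ctr9 and 29.1% of those with it.

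Within gene bodies, Ctr9 summits with Ser5p were nearer to the start, at a median of 9.82 kb (interval 7.94 to 11.6) against 22.0 kb (interval 21.7 to 22.4) without. The first 25% of the gene's length held 37.9% of the former and 15.8% of the latter, and the last 25% held 19.7% and 35.4%. Counting also summits near a start, 475 of 2505 Ctr9 peaks with Ser5p and 5743 of 42243 without were within 1 kb of an end. That difference of 5.37 percentage points was -0.876 among the 4490 Ctr9 peaks of highest significance and -2.56 with the ends of every transcript, so its direction depends on the choice. Among summits within 5 kb of an end, the median place was 467 bp past the end for Ctr9 with Ser5p, 434.5 bp for Ctr9 without and 298 bp for Ser5p.

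Where both summits lay within 1 kb of a start, the Ctr9 summit was a median of 37 bp downstream of the Ser5p summit (interval 12 to 67, 927 starts). The spread was much larger than this shift, since the middle 50% of starts ran from -268.5 to 328.5 bp and 55.1% of Ctr9 summits were downstream. The summits were within 100 bp of each other at 22.8% of starts. The median summit was 64 bp past the start for Ser5p and 131 bp for Ctr9.

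Peak cover along the genes showed where each list was dense. Over the 1377 genes of at least 5 kb with Ser5p at the start, Ser5p cover was highest 100 bp past the start, where 60.9% of genes had a Ser5p peak. Ctr9 covered 28.0% of these genes 500 bp before the start, 21.2% at 100 bp before it and 33.1% at 300 bp past it. At the ends the order was reversed: 1000 bp past the end, Ctr9 covered 58.8% of genes and Ser5p 7.41%. These genes were chosen by Ser5p at the start, so the Ser5p maximum there is set by the choice.

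**Figure D3:**
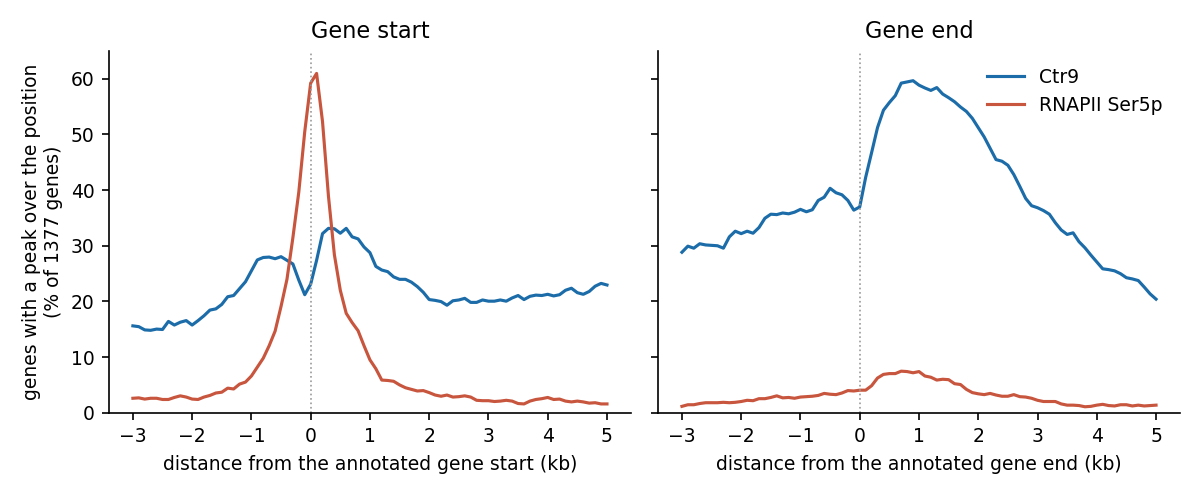
Share of 1377 protein-coding genes of at least 5 kb with RNAPII Ser5p at the start (percent, vertical axis) that have a Ctr9 or RNAPII Ser5p peak over each position, against distance in kb from the annotated start and end. Ser5p reaches 60.9% just past the start, and Ctr9 dips locally to 21.2% before the start and reaches 58.8% past the end.

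Seen by gene, Ser5p starts lay almost always in genes with Ctr9, though often without a Ctr9 summit within 1 kb of the start. Of 21938 protein-coding genes, 1747 had a Ser5p summit within 1 kb of the start (7.96%), 9679 a Ctr9 peak in the region (44.1%), and 1649 both (7.52%). Of the 1747 genes, 94.4% (interval 93.2 to 95.4%) had Ctr9 in the region. A Ctr9 summit within 1 kb of the start was found at 929 (53.2%), and 720 (41.2%) had Ctr9 in the region but no summit there. These counts rest on summits only. A wide Ctr9 peak can overlap the Ser5p peak at a start while its summit lies elsewhere, as at Actb. At the end, 980 (56.1%) had a Ctr9 summit and 314 (interval 16.2 to 19.9%) a Ser5p summit. Conversely, 39.2% of the 2371 genes with a Ctr9 summit at the start had Ser5p there.

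Median RNA level was 36.1 TPM (interval 33.3 to 39.7) in the 1649 genes with both, 11.7 in the 8030 with Ctr9 only, 8.31 (interval 5.65 to 9.70) in the 98 with Ser5p only and 0.0378 in the 12161 with neither. Among genes with Ser5p at the start, the share holding Ctr9 was 84.0% in the group of 5 with lowest TPM, then 91.4%, 97.7%, 99.1% and 99.7%. The share with a Ctr9 summit at the start itself showed no such order, at 55.9%, 51.4%, 47.9%, 57.5% and 53.0%. By gene length, the share with Ctr9 in the region was 96.9% in the shortest group and 87.7% in the longest.

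Pluripotency genes carried both marks often. Of 20 listed genes, 13 had Ser5p at the start and 19 had Ctr9, against 7.96% and 44.1% of all protein-coding genes. The factor Sox2 had Ser5p folds of 14.2 at -289 bp from the GENCODE start and 11.8 at 3369 bp past it. The RefSeq start printed below lies farther upstream, and the first of these summits is 121 bp past it. The highest Ctr9 fold at Sox2, 18.2, was 397 bp past the end. Nanog had its strongest Ser5p summit 235 bp past the start (fold 11.3) and its strongest Ctr9 summit 976 bp past the end (fold 13.1). Pou5f1, which encodes Oct4, had Ser5p of 6.96 at 222 bp past the start and a stronger Ser5p summit of 11.5 beyond the end, 3306 bp past it, under a Ctr9 peak of fold 16.5. In these 3 genes the strongest Ctr9 summit was beyond the gene's end.

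Esrrb, which encodes an orphan nuclear receptor of the pluripotency network, had no Ser5p summit near its annotated start. Its 15 Ser5p peaks began 109094 bp past that start and overlapped Ctr9 peaks of up to 29146 bp in width, and the highest Ctr9 fold of 24.7 lay 3995 bp past the end. Zfp42, the stem cell marker Rex1, had 10 Ser5p peaks and 3 Ctr9 peaks, with Ctr9 folds of 10.6 at -558 bp from the start, 13.7 inside the gene and 30.1 at 4808 bp past the end. Fgf4, Lin28a, Tcl1, Dppa4 and Prdm14 also had Ctr9 without Ser5p at the start, and Dppa3 had neither.

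The starts of Zfp42 and Sox2 are shown because Ser5p and Ctr9 peaks both lay on or beside them. Each window has 150 bases before the RefSeq start and 30 after it, and capitals mark CCAAT and GGGCGG (the GC box) on either strand. In windows of 300 bases, CCAAT was found in 37.4% and GGGCGG in 35.7% of 32851 RefSeq promoters. Zfp42 is at chr8:43306980-43307159 on the minus strand and Sox2 at chr3:34649845-34650024 on the plus strand, both in GRCm38.
Zfp42: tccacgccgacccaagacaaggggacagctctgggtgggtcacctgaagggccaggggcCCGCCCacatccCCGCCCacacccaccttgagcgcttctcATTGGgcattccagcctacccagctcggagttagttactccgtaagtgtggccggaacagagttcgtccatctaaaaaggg
Sox2: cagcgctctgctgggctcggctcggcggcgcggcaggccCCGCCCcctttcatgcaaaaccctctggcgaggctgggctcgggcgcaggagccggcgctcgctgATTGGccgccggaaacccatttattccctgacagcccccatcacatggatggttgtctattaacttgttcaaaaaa

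Among strongly expressed genes of other kinds, the marks also separated along the gene. Actb, the cytoskeletal actin, had a Ser5p summit of fold 19.2 at 63 bp past the start and another of 10.7 at 664 bp past the end. Its main Ctr9 peak, 7960 bp wide, overlapped both of these Ser5p peaks and had its summit of fold 33.1 at 771 bp past the end. Pabpc1, a poly(A)-binding protein, had Ser5p of 11.8 at 711 bp past the start and 10 Ctr9 peaks, with the highest fold of 14.1 at 2357 bp past the end. A Ctr9 peak of fold 6.63 overlapped that Ser5p peak. Weaker Ser5p summits of fold 4.21 and 4.19 lay 1348 and 3551 bp past the end, under Ctr9 peaks.

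The next lists are read against the same 7.96% of all protein-coding genes with Ser5p at the start and 44.1% with Ctr9. Ribosomal protein genes and their paralogs had Ser5p at the start in 66 of 83 cases (79.5%) and Ctr9 in 80 (96.4%), with Rps9 (Ser5p fold 17.5) and Rps12 (16.2) among the highest. Rpl10l, Rpl39l and Rpl3l had no Ctr9. Heat shock genes had Ser5p in 7 of 12 (58.3%) and Ctr9 in 11 (91.7%). The chaperone gene Hspa8 was highest, with Ser5p folds of 17.9 near the start and 21.4 inside the gene and a Ctr9 fold of 39.1. The 13 listed long noncoding RNA genes, which are not part of that background, had Ser5p in 7 cases and Ctr9 in 12. They were led by Neat1 (29.2), the scaffold of nuclear paraspeckles, and Gas5 (21.4). The list does not stand for its class. Of 5854 annotated long intergenic noncoding RNA genes, 147 lay under a Ser5p peak and 383 under a Ctr9 peak, counted by another rule.

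Among 24 genes of elongation control, 22 had Ctr9 (91.7%, against 44.1% of all protein-coding genes) and 4 had Ser5p at the start (16.7%, against 7.96%): Hexim1 (fold 6.64), Cdk12 (6.26), Cdk13 (4.91) and Supt5 (3.71). All 12 RNAPII subunit genes had Ctr9, and Polr2a (12.9) and Polr2b (3.55) had Ser5p (16.7%). A joint list of immediate early genes and ERK feedback genes (such as Spry2, Dusp6 and Etv5) had Ser5p in 8 of 21 (38.1%). Ctr9 was found in 15 (71.4%), and Ier3 had Ser5p (5.42) without Ctr9. Developmental and tissue genes were below the 44.1% background for Ctr9. Their Ser5p counts, set against 7.96%, are too small to be read as lower. Of 30 developmental regulators only Bmp4 had either mark (3.33%), with Ser5p of 7.69 and Ctr9 of 9.64. Of 20 genes of differentiated tissues none had Ser5p, and Cd4 alone had Ctr9, at a fold of 4.21.

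The strongest Ctr9 peaks with Ser5p were led by fold 52.3 at the miR-290 cluster on chromosome 7, inside the annotation of Nlrp12. There the Ser5p fold was 30.4, both peaks were about 6 kb wide (6200 and 6104 bp), and 9 microRNA genes, Mir290a to Mir295, lay under the Ser5p peak. This cluster encodes microRNAs abundant in mESCs. The next were a site 80540 bp before the pseudogene Gm18896 (Ctr9 43.2, Ser5p 9.69), the end of Gys1 (43.0, 17.7) and a Ctr9 peak of 43967 bp over Jade1 (41.9) that held 6 Ser5p peaks. Hist1h3c (39.7), Lncenc1 (39.4), Hspa8, Ptma (38.1) and Rfc4 (37.8) followed. All 10 strongest overlapped Ser2p, and 9 overlapped NELFA, against 2.40% and 1.82% of all Ctr9 peaks.

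The strongest Ctr9 peaks without Ser5p reached lower folds, from 26.5 down to 19.9, and most lay past gene ends. Hnrnpk (26.5) and Hnrnpf (23.2), which encode RNA-binding proteins, had their summits 1776 and 1475 bp past the end. Sars (23.4), Sesn2 (22.4), Wbp2 (21.2) and Nedd4 (19.9) had theirs 250 to 656 bp past the end. Those of Donson (25.4), Rbm4b (21.0) and Arhgap27os1 (20.3) lay inside genes. Of these 10 peaks, 9 overlapped Ser2p and none NELFA, against 2.40% and 1.82% of all Ctr9 peaks. The absence of NELFA is thus near the share over all Ctr9 peaks. Of all 42243 Ctr9 peaks without Ser5p, 26.3% lay in the region of a gene with Ser5p at its start, 64.2% only in regions of other protein-coding genes and 9.47% in none. The median distance to a Ser5p peak was 51.3 kb.

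The strongest Ser5p peaks were divided by gene class. Among the 20 of highest Ser5p fold, 9 were on snRNA genes and 5 on histone genes. In all, 34 Ser5p peaks lay on 35 snRNA genes, with folds from 6.90 to 35.9 (median 18.6) and summits a median of 84 bp from the gene's start. A Ctr9 peak overlapped 20 of the 34 (58.8%, interval 40.7 to 75.4%), and the Ser5p summit itself was under Ctr9 in 10. NELFA overlapped 30, and Ser2p 5. The class was singled out after its values were seen.

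For the pairs printed above, the Ser5p fold was 35.9 at Gm22068 and 29.0 at Gm22513 (U1) and 34.1 at Gm23849 and 21.8 at Gm23971 (U2). The Ctr9 peaks that overlapped those of the first copies had folds of 4.02 and 5.34. Neither of those Ser5p summits lay under its Ctr9 peak. By family, 2 of 9 U1 genes and 7 of 11 U2 genes lay under a Ser5p peak that overlapped Ctr9. The 2 U4 genes Gm24265 and Gm24407 shared a Ser5p peak (fold 30.1) with Ctr9 of 6.45. U7 (Rnu7) and the minor spliceosome genes Rnu11 and Rnu12 had Ctr9 folds of 5.38, 2.89 and 6.02. The lone U6 gene, Gm26479 in Tet1, was 715 bp from the Ser5p summit.

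The letters TCACCNTNA, within the proximal sequence element that recruits the snRNA activating complex, were searched in the 75 bases before each gene on the gene's strand. They were found at 5 of the 35 genes (14.3%), 61 or 60 bases before the start. All 5 were among the 21 genes with Ctr9, and 0 of the 14 without had them. These counts are small and copies of a family are not independent. A link between the letters and Ctr9 was not tested. The same letters were in 0.286% of 32851 RefSeq promoters over the same bases and in 0.594% of 1347 other annotated snRNA genes.

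At high Ser5p, Ctr9 was lower at snRNA genes than at histone genes. Of 67 clustered histone genes (symbols Hist1h to Hist4h), 37 had Ser5p at the start (55.2%) and 45 had Ctr9 (67.2%). At a Ser5p fold of at least 10 there were 287 peaks, of which 94.8% overlapped Ctr9. Clustered histone genes are also short, and most of their transcripts lack poly(A) tails. The 29 peaks on them all overlapped Ctr9, with a median Ctr9 fold of 22.6 (range 10.8 to 39.7) at a median Ser5p fold of 18.4. The 34 on snRNA genes or the genes of the small nucleolar RNA U3 overlapped Ctr9 in 21 cases (61.8%, interval 43.6 to 77.8%), with a median Ctr9 fold of 4.02 (range 2.49 to 9.52) at a median Ser5p fold of 19.1. These Ctr9 ranges did not overlap at this Ser5p threshold. Below it, the histone gene Hist3h2a had a Ser5p fold of 8.34 and a Ctr9 fold of 7.25, inside the range of the snRNA and U3 genes. Ser2p lay over 24 of the 29 histone peaks and 5 of the 34 others. The remaining peaks had Ctr9 in 108 of 110 cases near coding starts (median Ctr9 fold 16.6) and in 114 of 114 elsewhere (median interval 15.8 to 20.5). Their lowest Ctr9 folds were 4.33 and 2.89.

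**Figure D4:**
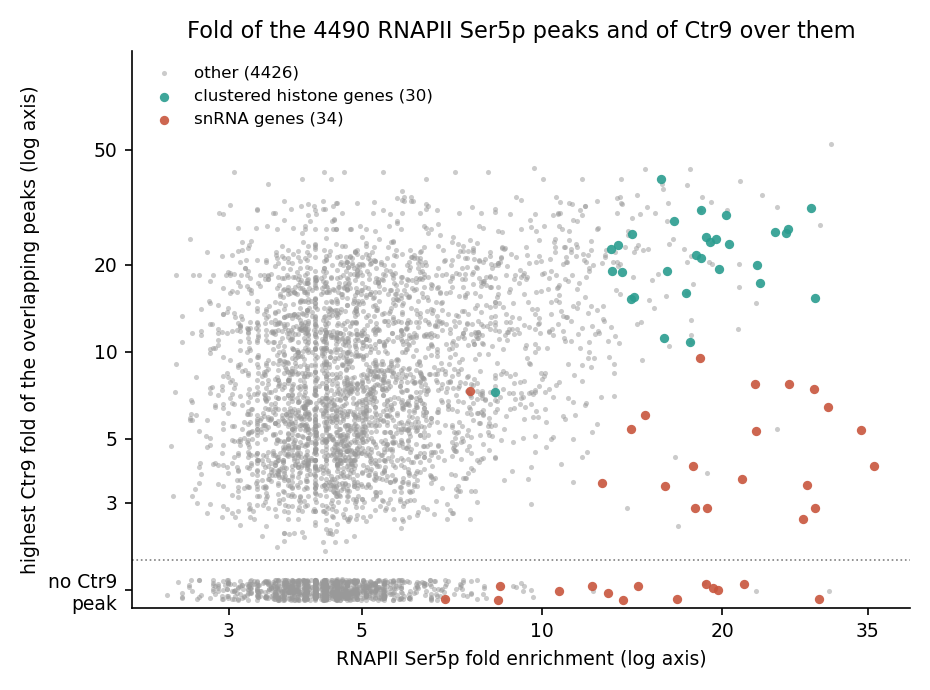
Highest Ctr9 fold over each of the 4490 RNAPII Ser5p peaks against its Ser5p fold, both on log axes, with peaks lacking Ctr9 drawn in a band at the bottom and spread vertically for display. The snRNA points (34) lie at Ser5p folds of 6.90 to 35.9 with Ctr9 at 9.52 or below or absent, while histone points of Ser5p fold 10 or more lie at Ctr9 folds of 10.8 or above.

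The 10 strongest Ser5p peaks without Ctr9 all lay on or beside genes of small RNAs, 7 of them snRNAs and 3 small nucleolar RNAs. The U3 gene Rnu3b2 had the highest fold at 30.1, followed by Gm22513, Rnu3b3 (22.7) and Gm23971. Snord13 (18.7), beside the start of Tti2, Gm22042 (16.8) and Gm23238 (14.5) were also in this set. The start of Eapp, highest in Ser5p fold among protein-coding genes with Ser5p only, held no peak of its own, since its summit was that of Gm22513, 930 bp away. Leaving out small RNA genes, which was chosen after the values were seen, high folds at coding starts were found at the glucose transporter gene Slc2a1 (9.68), Amd1 (9.60), Arrdc2 (9.32) and Dnajb9 (9.06). All 4 overlapped NELFA, against 56.7% of all start peaks without Ctr9. None overlapped Ser2p, as was the case for every Ser5p peak without Ctr9.

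Ser5p away from annotated genes was taken as summits outside the body and 1 kb on each side of genes of every biotype, which together cover 47.3% of the genome. There were 828, and Ctr9 overlapped 723 of them (87.3%, interval 84.9 to 89.5%), against 74.8% of the 3662 at genes. H3K27ac lay over 53.6%, Ser2p over 20.7% and NELFA over 12.3%, the last against 31.1% at genes.

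The other marks changed with distance. Of 387 Ser5p peaks 1 to 5 kb from a gene, Ctr9 overlapped 92.2%, Ser2p 35.9% and H3K27ac 38.0%. Of 258 at 10 to 50 kb, the shares were 82.2%, 5.81% and 65.5%. Of 26 beyond 50 kb, they were 76.9%, 15.4% and 88.5%. Within 10 kb, the 332 past a gene's end overlapped Ctr9 in 94.9% and Ser2p in 41.6%, whereas the 209 before a start overlapped them in 83.7% and 6.22%.

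**Figure D5:**
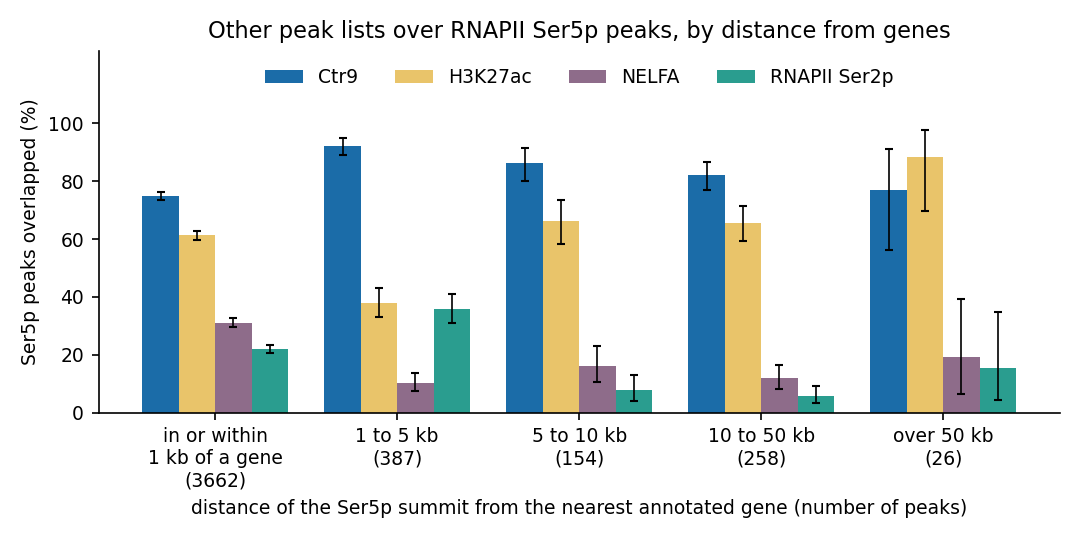
Share of RNAPII Ser5p peaks overlapped by the Ctr9, H3K27ac, Ser2p and NELFA lists of mESCs (percent, with 95% exact intervals), for peaks at genes and in 4 ranges of distance from the nearest annotated gene. Ctr9 is at 74.8% for peaks at genes and between 76.9 and 92.2% in the 4 ranges, Ser2p is highest at 1 to 5 kb (35.9%), and H3K27ac is lowest there (38.0%) and highest beyond 50 kb (88.5%).

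The 10 strongest peaks away from genes all overlapped Ctr9 and NELFA. Several lay just past the ends of genes, such as Rpl3 (Ser5p fold 23.3, Ctr9 34.9), Ptma (15.9, 38.1), the pluripotency factor gene Klf2 (15.1, 15.1), Mto1 (14.6, 30.0) and Nfe2l3 (14.5, 23.3), with Ser2p at each. Snhg1 (15.0, 22.7) was of the same kind. Others had no Ser2p: Gm12984 (17.8, 11.5), Nkx6-3 (16.1, 15.6), Zc3h11a (15.6, 18.6) and Gabrp (14.3, 22.1), all with H3K27ac. The window of 200 bases around the summit nearest to Gm12984 is shown as the strongest not past a gene's end. It lies at chr4:135300727-135300926, 6522 bp before the start of that gene, and capitals mark TATAAA and CCAAT on either strand. In windows of 300 bases TATAAA was found at 17.3% of the Ser5p summits away from genes with Ctr9 and in 13.6% of RefSeq promoters.
Gm12984: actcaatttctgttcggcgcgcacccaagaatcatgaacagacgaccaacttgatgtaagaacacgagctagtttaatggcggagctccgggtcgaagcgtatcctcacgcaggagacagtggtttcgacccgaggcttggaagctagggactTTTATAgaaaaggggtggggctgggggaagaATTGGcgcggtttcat

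Peaks away from genes were partly clustered. Joined over gaps of up to 10 kb they formed 471 loci, of which 292 held 1 peak and 41 held 4 or more. Near Rab12 a stretch of 7.69 kb held 9 Ser5p peaks, all with Ctr9. A stretch of 20.4 kb near Gm12495 held 9, of which 8 had Ctr9, and 17.2 kb near Ranbp17 held 8, all with Ctr9. Neighbouring peaks of a locus are not independent.

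The 105 Ser5p peaks away from genes without Ctr9 were weaker, with a highest fold of 7.37 near St6galnac2 and a median width of 295 bp against 498 bp with Ctr9. H3K27ac lay over 66.7% of them, and Ser2p over none, as was the case for every Ser5p peak without Ctr9. In 33 of them no other mESC list had a peak. Ctr9 itself had 7956 peaks away from genes, and 561 of them (7.05%) overlapped Ser5p. H3K27ac overlapped 69.2% of those 561 and 5.50% of the 7395 others, and the median Ctr9 fold was 6.04 and 3.87.

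Base composition differed with position and, in places, with the other mark. Over 300 bases centred on the summit, Ser5p peaks at starts had a median G+C content of 62.3% with Ctr9 and 64.7% without, and an observed over expected CpG ratio of 0.822 and 0.865. GGGCGG was in 51.5% and 63.0% of them. In gene bodies the difference was larger: G+C content was 50.3% with Ctr9 and 56.3% without, the CpG ratio 0.311 and 0.564, and GGGCGG was in 16.6% and 40.3%. Ctr9 summits at starts had a CpG ratio of 0.721 with Ser5p and 0.497 without. At ends the G+C content was 50.0% and the CpG ratio 0.213, and more than 10 kb from genes 49.2% and 0.257. The windows on snRNA genes had 44.0% G+C, and TATAAA was in 29.4% of them. These windows take in transcribed bases, and the U5 genes Rnu5g and Gm23287 hold TATAAA inside the gene. The share is therefore not one of promoter elements. RefSeq promoters had 52.7% G+C and a CpG ratio of 0.384.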

How the data were processed

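ChIP-seq reads were mapped by the authors to mm10 (Bowtie2 2.3.5.1), those in ENCODE blacklist regions were discarded, and MACS2 2.2.6 called peaks library by library. The deposited peak lists give, per peak, a fold enrichment (ratio), −log10 p and q, a score (not used) and a summit. Read depth is not in these lists, so the precision of a single peak's fold is unknown. The authors quantified RNA-seq with kallisto 0.46.1, and the deposited mESC table gives estimated counts (sum 2.64e+07) and TPM for 137767 transcripts. A gene took its transcript of highest TPM.

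Of 12 samples, 9 had a processed file, 1 library per group, and the 3 inputs were not analysed here. The NIH3T3 H3K27ac and RNA-seq files were not used. Overlaps of at least 1 bp, summit positions against GENCODE vM21 genes and GRCm38 sequences were computed with Python 3.11.15, pandas 2.3.3, NumPy 2.4.6 and SciPy 1.17.1. The procedures were tested on simulated peaks, and 9 of 9 checks passed. Peaks off the assembled chromosomes (10 Ctr9, 3 Ser5p) were kept in counts of overlap. Gene identities in lists of overlapping genes are as annotated, so a peak can count for 2 genes.

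Named loci were the 10 peaks of highest fold among Ctr9 with and without Ser5p, Ser5p, Ser5p without Ctr9 and Ser5p away from genes, 7 fixed genes (Actb, Pabpc1, Pou5f1, Sox2, Nanog, Esrrb, Zfp42) and members of the gene lists; some named loci are not reported here. The fixed histone list matched 71 symbols, among them H13, which is no histone, and the variant genes H1f0, H3f3a and H3f3b. These 4 were dropped after values were seen, leaving 67. Members and lists were chosen with earlier results of these data known. Thresholds on q, overlap rules, windows, annotation, number of Ctr9 peaks and summaries were varied.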

Additional observations from a re-analysis of the deposited data

How the results depend on the processing

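Across 55 alternatives to 11 results, 26 stayed near the reported value, 27 moved and 2 reversed, judged by that value's interval or, for the count of Ser5p peaks away from genes, by a ratio. With a −log10 q of at least 5 (30724 Ctr9 and 3578 Ser5p peaks), 6.63% of Ctr9 peaks overlapped Ser5p, the Ctr9 fold and width differences were 2.68 and 1053.5 bp, the Ser5p start difference -35.0 points and the share of Ser5p-start genes with Ctr9 93.0%. Requiring a summit inside the other peak gave 3.72% and 67.0% overlap, a fold difference of 3.50, a width difference of 1176.5 bp, an end difference of 8.60 points and 78.9% Ctr9 away from genes. Overlap of at least 50% of the shorter peak gave 4.91% and 70.9%. With the 4490 most significant Ctr9 peaks, overlap was 31.6% and 54.1%, the width difference 685 bp, the start difference 14.3 points, and the end difference reversed to -0.876. Ends of every transcript also reversed it, to -2.56. Windows of 500 bp gave start and end differences of 16.1 and 3.19 points, and windows of 2 kb gave 30.8, 3.43 and, for Ser5p starts, -34.7. Means in place of medians gave fold and width differences of 4.49 and 1768 bp. Away from genes there were 646 Ser5p peaks at the stricter q, 1144 when only protein-coding genes counted as genes and 441 with a margin of 5 kb, of which 83.0% had Ctr9, and a gene region of the body with 1 kb on each side gave 91.6%. The causes were not tested. The offset at starts was also computed for starts without an opposite-strand start within 2 kb, an alternative chosen after seeing the data (38 bp). No paired analysis was possible because each group had 1 library. Depth is unknown, so a missing peak may lie below detection.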

Other observations

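The Ser5p peaks were also divided by all 4 other mESC lists together. The commonest sets were Ctr9 with H3K27ac only (973 peaks, 21.7%), Ctr9 only (940, 20.9%), Ctr9 with Ser2p only (586, 13.1%) and Ctr9 with NELFA and H3K27ac (528, 11.8%). The 166 peaks with all 4 lists had a median Ser5p fold of 11.5 and a median width of 1773.5 bp. The 139 peaks with none had 4.32 and 267 bp.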
